A study of Homo sapiens with 6 samples.

Results

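Long noncoding and antisense RNA genes were described in MM.1S, a human multiple myeloma cell line, after selection for resistance to lenalidomide. The members were the genes whose symbol begins with LINC and a number, or ends in -AS1, -AS2, -IT1 or -DT, and 352 of the 12760 genes measured met this rule. They comprised 114 LINC genes, 232 antisense genes and 6 intronic transcripts, and 0 symbols ended in -DT. Members below 1 FPKM (fragments per kilobase of transcript scaled to the size of the library, a level per length) were kept. The LenR group was 3 libraries of MM.1S cells grown in lenalidomide, begun at 10 nM and raised 10-fold each month over 3 months. The WT group was 3 libraries of MM.1S cells grown alongside in the solvent DMSO. Both groups are the same line of wild-type genotype, and the labels describe 1 selected LenR population. The labels call the 3 libraries of a group biological replicates but do not say whether they came from separate cultures, so p-values measure the spread between these libraries, which may be technical. The dose in the medium at harvest is not given in the sources used here.

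Long noncoding RNAs are transcripts with no long reading frame, and most are present at lower levels than messenger RNAs. LINC genes lie between protein-coding genes. An antisense gene is transcribed from the strand opposite its sense partner, either across the partner's body or head to head with it, from a start site beside the partner's own promoter. Some of these RNAs act on neighbouring genes, some act elsewhere in the cell, and for many no function is known. Lenalidomide acts through cereblon, by which a ubiquitin ligase comes to mark the lymphoid factors IKZF1 and IKZF3 for degradation.

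The genome sequence around the start sites of 5 members is shown to make visible how close an antisense gene can lie to its partner, and how an intergenic member differs. The windows run from 250 bases before to 50 bases after the start site on the member's strand, from RefSeq, GRCh38.p14. In the first 4, capitals mark the stretch between the member's start site and that of the partner on the other strand. In LINC01432, capitals mark the motif CCAAT on either strand. A search there for TATAAA found no match, nor did a search for GGGCGG. All 5 members were chosen for display with their values known.
USP27X-AS1, chrX:49879307-49879606, minus strand: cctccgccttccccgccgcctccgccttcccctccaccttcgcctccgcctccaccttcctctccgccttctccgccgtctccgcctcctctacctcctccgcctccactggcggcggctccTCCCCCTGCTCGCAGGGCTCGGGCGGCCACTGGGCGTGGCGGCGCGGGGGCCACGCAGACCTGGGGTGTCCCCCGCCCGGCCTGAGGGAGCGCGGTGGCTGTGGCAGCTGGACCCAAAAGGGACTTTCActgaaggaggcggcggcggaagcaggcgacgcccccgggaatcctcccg
SAP30L-AS1, chr5:154445773-154446072, minus strand: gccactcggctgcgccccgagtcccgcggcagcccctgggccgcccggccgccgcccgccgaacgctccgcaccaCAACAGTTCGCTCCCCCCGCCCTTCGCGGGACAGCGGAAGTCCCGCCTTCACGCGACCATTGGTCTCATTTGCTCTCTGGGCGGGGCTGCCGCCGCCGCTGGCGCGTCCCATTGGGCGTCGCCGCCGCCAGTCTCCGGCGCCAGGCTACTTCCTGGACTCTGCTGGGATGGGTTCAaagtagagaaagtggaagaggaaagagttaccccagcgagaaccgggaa
GAS6-AS2, chr13:113863927-113864226, plus strand: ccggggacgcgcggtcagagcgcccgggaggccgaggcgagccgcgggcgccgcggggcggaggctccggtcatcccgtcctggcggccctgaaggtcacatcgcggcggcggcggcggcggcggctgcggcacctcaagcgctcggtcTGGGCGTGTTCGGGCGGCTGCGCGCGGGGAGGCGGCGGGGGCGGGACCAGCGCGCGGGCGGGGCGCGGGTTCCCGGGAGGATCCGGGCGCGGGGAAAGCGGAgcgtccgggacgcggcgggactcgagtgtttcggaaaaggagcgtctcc
PAXIP1-AS1, chr7:155003183-155003482, plus strand: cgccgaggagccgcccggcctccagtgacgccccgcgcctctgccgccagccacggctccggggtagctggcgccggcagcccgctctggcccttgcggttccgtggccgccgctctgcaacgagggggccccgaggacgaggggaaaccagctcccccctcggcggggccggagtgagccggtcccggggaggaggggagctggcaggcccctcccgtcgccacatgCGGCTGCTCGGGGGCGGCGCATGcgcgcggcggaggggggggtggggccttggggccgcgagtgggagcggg
LINC01432, chr20:22053840-22054139, plus strand: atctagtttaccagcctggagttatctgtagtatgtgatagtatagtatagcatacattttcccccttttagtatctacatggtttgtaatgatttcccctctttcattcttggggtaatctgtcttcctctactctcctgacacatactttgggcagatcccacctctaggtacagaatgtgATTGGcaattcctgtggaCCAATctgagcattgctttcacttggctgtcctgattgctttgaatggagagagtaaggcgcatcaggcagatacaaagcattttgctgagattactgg

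The 2 start sites were 128 bases apart for USP27X-AS1 and USP27X, 175 for SAP30L-AS1 and SAP30L, 101 for GAS6-AS2 and GAS6, and 22 for PAXIP1-AS1 and PAXIP1. The windows held 32 CG dinucleotides for USP27X-AS1, 35 for SAP30L-AS1, 56 for GAS6-AS2 and 38 for PAXIP1-AS1, against 1 for LINC01432. RefSeq held a start site window for 274 of the 352 members. The median was 30 CG dinucleotides over 100 members that lie head to head with their partner, 23 over 67 antisense members that overlap the partner's body, and 13 over 84 LINC members. Over all 27305 RefSeq windows of this length the median was 14. GGGCGG, searched on both strands, was in 73.0% of the head to head windows, 45.2% of the LINC windows and 44.6% of all windows. TATAAA was in 2.00% of the head to head windows and in 11.95% of all windows. These letters are a description of the windows, and they are not measured binding sites.

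The members were thinly covered. Their median level was 1.97 FPKM, against 9.85 FPKM over all genes, and 87 of 352 (24.7%) averaged below 1 FPKM, against 11.6% of all genes. Reads worked out from the steps between FPKM values gave 14497407 to 17384457 reads per library. The median member had 369.5 reads over the 6 libraries together, against 3108 for all genes, and the fewest was 70. The standard error of a log2 fold change was accordingly wider for members, with a median of 0.146, against 0.104 over all genes. On the first 2 principal components, LenR replicate 2 and WT replicate 3 stood apart from the other libraries on the second, which held 19.0% of the variance. The group difference lay on the first, which held 62.8%. The plasma cell markers fit the label, since 11 of 11 were measured, with a median level of 258 FPKM. Of these, 5 were called higher in LenR (IRF4, XBP1, SDC1, PRDM1 and CD38), 0 lower and 6 neither. Over all genes 9.15% were called higher and 7.37% lower. Of 4 B cell and 4 myeloid markers, 0 were among the genes analysed here. The 2 of 6 T and NK cell markers that were present summed to 2.72 to 2.96 FPKM in LenR and 3.05 to 3.64 FPKM in WT. Of 4 epithelial and stromal markers 2 were present, VIM at a mean of 271 FPKM over the 6 libraries and COL1A1 at 0.320 FPKM. Of 3 erythroid markers 1 was present, HBB at a mean of 6.66 FPKM.

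Of the 352 members, 46 were higher and 13 lower in LenR than in WT (limma on log2(FPKM + 0.1), Benjamini-Hochberg adjusted p below 0.05 over all 12760 genes). In bulk RNA, fewer cells that make a transcript and less of it per cell cannot be told apart. These 59 calls are 16.8% of the members, and the same test called 16.5% of all genes. By direction, members were called higher in 13.1% of cases and lower in 3.69%, against 9.15% higher and 7.37% lower over all genes. The median log2 fold change was 0.06 over the members and -0.00 over all genes. In 118 members the 3 LenR values lay wholly above (83) or below (35) the 3 WT values, which is 33.5%, against 35.5% of all genes. At an unadjusted limma p below 0.05 there were 114 of 352 members, against 3808 of 12760 genes. The share of members called was near that of all genes, so it is no result about the members. With quantile normalised libraries the split was 41 higher and 20 lower (17.3%, against 16.2% of all genes). Over all genes that split was 1074 higher and 999 lower. Without LenR replicate 2 and WT replicate 3, which stood apart, it was 42 higher and 12 lower (15.3%, against 16.4% of all genes). Without LenR replicate 1 there were 29 higher and 7 lower (10.2%, against 10.5% of all genes). Without WT replicate 1 there were 28 higher and 12 lower (11.4%, against 10.3% of all genes).

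Over all genes, 16.5% were called, with 9.15% higher and 7.37% lower. LINC genes made up 29 of the 59 calls, with 25 higher and 4 lower, or 25.4% of the 114 LINC genes. Antisense genes made up 30, with 21 higher and 9 lower, or 12.9% of 232. Of the 6 intronic transcripts, 0 were called by limma, and 1 had an unadjusted p below 0.05. By level, 19 of 86 members of at least 5 FPKM were called (22.1%), with 16 higher, against 13.7% of all genes at that level. Below 1 FPKM, 9 of 87 members were called (10.3%), against 24.1% of all genes at that level. RefSeq now records 11 members as protein coding, among them LINC00998 (SMIM30), LINC00493 (SMIM26) and LINC00116 (MTLN), which encode small membrane proteins, and limma called 0 of these 11, with 3 at an unadjusted p below 0.05.

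**Figure D1:**
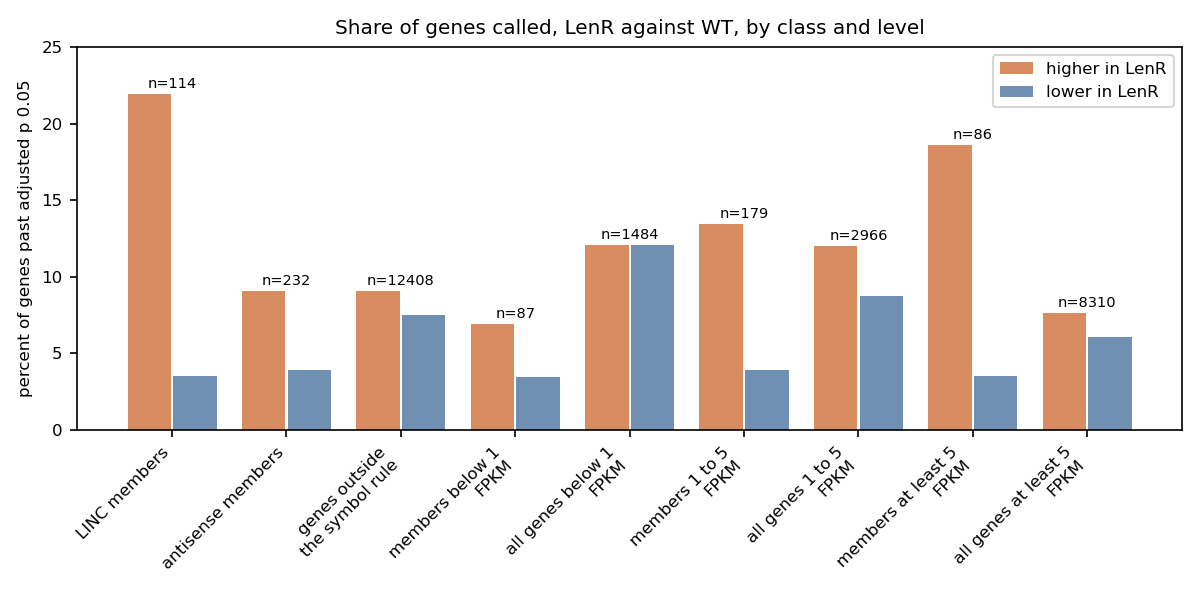
Percent of genes past an adjusted p of 0.05 (limma), as higher (orange) and lower (blue) in LenR than in WT, for LINC and antisense members, for genes outside the symbol rule, and by mean level for members and all genes; n is the number of genes. LINC genes were called higher in 21.9% and lower in 3.51% of cases, against 9.03% and 7.48% of genes outside the symbol rule. Of members below 1 FPKM 10.3% were called, against 24.1% of all genes at that level.

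LINC01432 had the highest log2 fold change among called members with the pseudocount of 0.1. It is an intergenic transcript on chromosome 20, at 22054090 to 22074654. It had 2.23, 2.05 and 2.96 FPKM in LenR replicates 1 to 3, against 0.168, 0.356 and 0.202 FPKM in WT. Every LenR library was above every WT library. The log2 fold change was 2.90 (SE 0.225, limma adjusted p = 0.000195), on 22, 22 and 35 reads in LenR and 2, 4 and 2 reads in WT. By voom on the worked-out reads it was 3.14, below the 3.31 of USP27X-AS1.

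LINC01480 was the most abundant member that changed. It lies on chromosome 19, at 41535498 to 41536904. It had 97.3, 86.5 and 81.5 FPKM in LenR, against 37.8, 34.1 and 31.5 FPKM in WT. The groups were far apart compared with their spread, and the log2 fold change was 1.36 (SE 0.0967, limma adjusted p = 0.000149). It rested on 2820 reads over the 6 libraries, so counting error was small here. Of the 31 table genes within 1 Mb, 1 was called higher and 0 lower.

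LINC01573, now named NALT1, lies next to NOTCH1 and was described in T-cell leukaemia. It had 6.29, 4.16 and 5.03 FPKM in LenR, against 2.19, 1.77 and 2.13 FPKM in WT (log2 fold change 1.29, limma adjusted p = 0.00126). LINC00896 had 4.51, 3.92 and 3.63 FPKM in LenR, against 1.45, 1.504 and 1.92 FPKM in WT (log2 fold change 1.26). Neither gene's groups overlapped. LINC00944 had 8.96, 5.79 and 7.83 FPKM in LenR, against 3.58, 3.59 and 3.53 FPKM in WT (log2 fold change 1.03). LINC00957 had 6.14, 6.61 and 5.47 FPKM in LenR, against 2.89, 3.33 and 2.77 FPKM in WT (log2 fold change 1.00). In both the WT libraries were close together and all LenR libraries were higher. LINC00996, at 46.6, 47.4 and 46.8 FPKM in LenR and 33.5, 32.5 and 36.0 FPKM in WT, was an abundant member with a small shift (log2 fold change 0.46, limma adjusted p = 0.00259).

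AFAP1-AS1 had the lowest log2 fold change among called members with the pseudocount of 0.1. It is transcribed antisense to AFAP1, the gene of an actin filament associated protein, on chromosome 4 at 7754090 to 7778928, and is known from several carcinomas in which its level is high. It had 0.829, 0.734 and 0.724 FPKM in LenR, against 4.88, 5.07 and 4.68 FPKM in WT. The 2 groups were tight and well separated, with 79 to 86 reads per LenR library and 465 to 582 per WT library. The log2 fold change was -2.53 (SE 0.0970, limma adjusted p = 2.33e-05), and without WT replicate 3 and LenR replicate 2 it was -2.54. Its sense partner was not analysed here.

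LINC00403, now named SOX1-OT because it overlaps the neural transcription factor gene SOX1, had 1.45, 0.868 and 1.57 FPKM in LenR, against 3.86, 4.08 and 4.27 FPKM in WT (log2 fold change -1.62, limma adjusted p = 0.00126). LINC00565, now SWINGN, lies beside GAS6 on chromosome 13. It had 1.61, 1.299 and 1.85 FPKM in LenR, against 4.14, 3.87 and 4.50 FPKM in WT (log2 fold change -1.35). All LenR libraries were below all WT libraries in both. LINC00674 had only 2, 1 and 3 reads in LenR, against 28, 45 and 26 in WT, or 0.0123, 0.00564 and 0.0153 FPKM against 0.143, 0.242 and 0.159 FPKM. Its log2 fold change was -1.33 with the pseudocount of 0.1 and -3.76 by voom on the worked-out reads, where that of AFAP1-AS1 was -2.68, since the pseudocount exceeds its LenR level.

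Some smaller decreases among the named members lay near the threshold and lost their call with 1 library left out. LINC00673 had 6.94, 6.40 and 6.46 FPKM in LenR, against 8.86, 9.27 and 9.13 FPKM in WT (log2 fold change -0.46, limma adjusted p = 0.00417), and kept its call whichever library was left out. TNRC6C-AS1, which RefSeq now merges with TMC6, had 6.81, 8.17 and 6.96 FPKM in LenR, against 10.6, 9.67 and 12.1 FPKM in WT. Its log2 fold change was -0.56, and the limma adjusted p was 0.0117 with all libraries and 0.0583 without LenR replicate 1. The log2 fold change without 1 library ran from -0.64 to -0.47. LLPH-AS1 (log2 fold change -0.45) lost its call without any 1 library other than WT replicate 1, with limma adjusted p up to 0.140 and log2 fold changes from -0.57 to -0.37. GDNF-AS1 (log2 fold change -0.37) lost it without any 1 of the 6, with limma adjusted p up to 0.173 and log2 fold changes from -0.42 to -0.33.

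**Figure D2:**
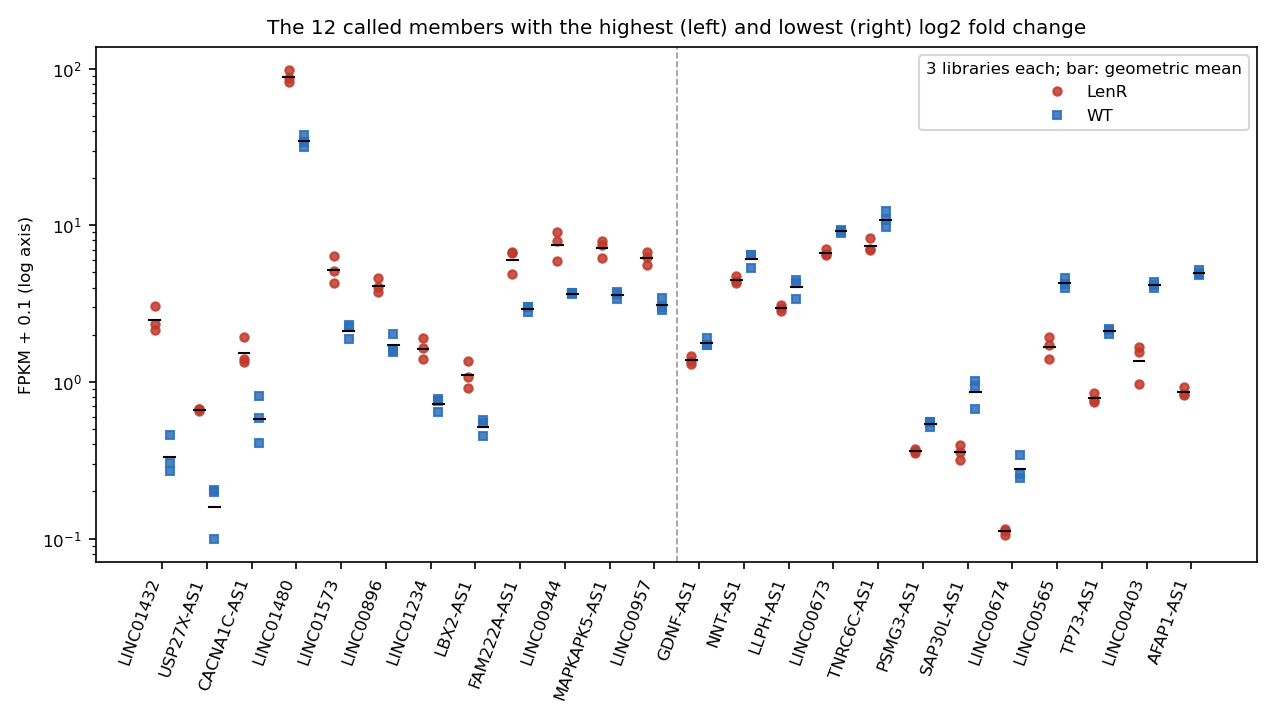
FPKM + 0.1 on a log axis in each library for the 12 called members with the highest and the 12 with the lowest log2 fold change, with LenR (red circles) left of WT (blue squares); bars are geometric means of 3 libraries. LINC01480 is the only one of the 24 above 20 FPKM, and LINC00674 lies at the pseudocount in LenR.

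Most of the abundant and well-studied members were not called, and neither were most genes, of which 16.5% were called. Among members of at least 5 FPKM 22.1% were called, against 13.7% of all genes at that level. LRRC75A-AS1, now SNHG29, a host gene of small nucleolar RNAs, had the highest mean level. It had 94.7, 63.9 and 101 FPKM in LenR, against 86.6, 86.3 and 67.7 FPKM in WT (limma adjusted p = 0.792). LINC00657, now NORAD, a cytoplasmic RNA that binds Pumilio proteins, had 62.3, 46.4 and 59.9 FPKM in LenR, against 63.5, 63.1 and 50.1 FPKM in WT (limma adjusted p = 0.792). In both genes LenR replicate 2 and WT replicate 3, the libraries that stood apart, were the lowest of their groups. IFNG-AS1, a lymphoid transcript beside the interferon gamma gene, had 38.6, 36.4 and 40.6 FPKM in LenR, against 39.5, 40.9 and 35.4 FPKM in WT (limma adjusted p = 0.992). FEZF1-AS1 had 35.5, 36.1 and 35.1 FPKM in LenR, against 40.1, 37.4 and 39.1 FPKM in WT, without overlap but with a log2 fold change of only -0.13 (limma adjusted p = 0.223). Of 20 members taken from a list of 22 well-known names, MAPKAPK5-AS1 and LINC01480 were called (higher) and 18 were not. For comparison, among 37 other long noncoding RNA genes with other kinds of symbol, 2 were higher, 1 lower and 34 neither, with a median log2 fold change of 0.14. PVT1, the gene beside MYC, averaged 23.2 ± 1.21 FPKM in LenR and 10.5 ± 0.495 FPKM in WT (SD, n = 3 each), and its log2 fold change was 1.13 (limma adjusted p = 0.000104). LINC-PINT was higher (0.41) and TUG1 lower (-0.27).

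A sense partner had a row for 221 of the 238 antisense and intronic members. The labels give no strand setting for the counting, so reads from an antisense gene and an overlapping partner cannot be told apart. Exons overlapped between the 2 genes in 150 pairs and did not in 64, by the GENCODE annotation, which may differ from the one the authors used. The antisense gene was the lower of the 2 in 179 pairs and the higher in 42, with medians of 1.96 FPKM for antisense genes and 14.5 FPKM for partners. Start sites were within 5 kb, head to head, in 122 pairs, and 90 other pairs overlapped on opposite strands.

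The 2 genes of a pair were then compared with each other. Their log2 fold changes had the same sign in 142 of 221 pairs (64.3%), against 56.1% for each placed gene and its nearest gene. Pearson's r across the pairs was 0.57, against 0.24 for nearest genes; genes of 1 library share its depth and are not independent replicates. Both genes were called in 14 pairs (6.33%), of which 11 were both higher, 3 both lower and 0 opposite. For each placed gene and its nearest gene, both were called in 627 of 12558 (4.99%), in opposite directions in 81, so the share of pairs with both called was near that of nearest genes. Such pairs numbered 6 without LenR replicate 1, 8 without WT replicate 1 and 7 without WT replicate 2. Only the antisense gene was called in 13 pairs, only the partner in 16 and neither in 178. The sign agreed in 97 of 150 pairs that share exon bases and in 40 of 64 that do not. A call in 1 gene only does not show that the 2 genes differ, which is why the ratio within each library was also compared.

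**Figure D3:**
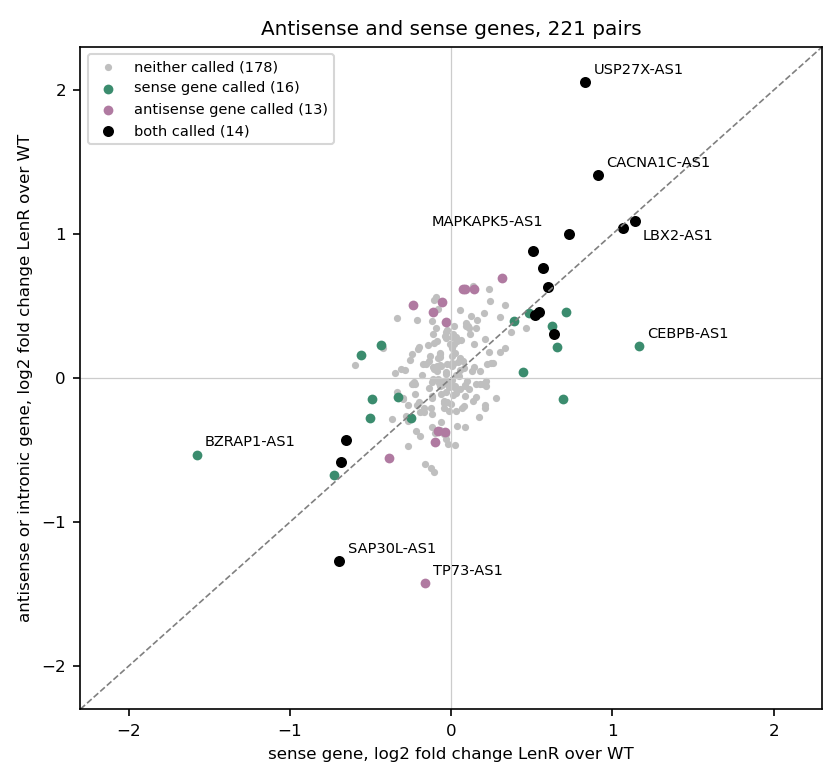
Log2 fold change (LenR over WT) of each antisense or intronic gene on the y axis and of its sense gene on the x axis for 221 pairs, coloured by which of the 2 genes limma called; the dashed line marks equal values. The 14 pairs with both genes called lie in the upper right and lower left, and TP73-AS1 lies far below the line.

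Among pairs with both genes higher, USP27X-AS1 had the highest antisense log2 fold change, and its partner USP27X is a deubiquitinase gene. USP27X-AS1 had 0.570, 0.551 and 0.574 FPKM in LenR, against 0.0996, 0.105 and 0 FPKM in WT (log2 fold change 2.06, SE 0.278, limma adjusted p = 0.00198). USP27X had 2.06, 2.13 and 2.35 FPKM in LenR, against 1.37, 1.21 and 0.989 FPKM in WT (log2 fold change 0.83, limma adjusted p = 0.00442). All LenR libraries were above all WT libraries for both genes of this head to head pair, whose exons do not overlap. The antisense gene had 19, 20 and 23 reads in LenR and 4, 4 and 0 in WT, and by voom on the reads its log2 fold change was 3.31.

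CACNA1C-AS1 lies inside CACNA1C, the gene of an L-type calcium channel pore subunit. It had 1.23, 1.84 and 1.31 FPKM in LenR, against 0.716, 0.487 and 0.307 FPKM in WT (log2 fold change 1.41, limma adjusted p = 0.00856). CACNA1C had 0.722, 0.708 and 0.509 FPKM in LenR, against 0.249, 0.272 and 0.367 FPKM in WT (log2 fold change 0.91). The pair shares 564 exon bases. LBX2-AS1 had 0.813, 1.26 and 0.981 FPKM in LenR, against 0.349, 0.468 and 0.447 FPKM in WT (log2 fold change 1.09), and the homeobox gene LBX2 had a log2 fold change of 1.14 with 650 shared exon bases. SOCS2-AS1 had 6.22, 6.71 and 4.38 FPKM in LenR, against 3.08, 3.15 and 2.86 FPKM in WT (log2 fold change 0.89). SOCS2, a suppressor of cytokine signalling, had 9.51, 10.2 and 10.0 FPKM in LenR, against 7.25, 6.63 and 6.91 FPKM in WT (log2 fold change 0.51). No group overlapped in any of these genes.

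The remaining pairs with both genes higher were MAPKAPK5-AS1, FAM222A-AS1, TONSL-AS1, USP30-AS1, PDCD4-AS1, MFI2-AS1 and LAMP5-AS1 with their partners. Their antisense log2 fold changes ran from 0.30 for LAMP5-AS1 to 1.04 for FAM222A-AS1. Of these, USP30-AS1 lost its call without any 1 library other than LenR replicate 2 (limma adjusted p up to 0.173). LAMP5-AS1 lost it without any 1 library other than LenR replicate 3 (up to 0.172). PDCD4-AS1 lost it without LenR replicate 1 or 2 or any WT library (up to 0.0935). MFI2-AS1 lost it without LenR replicate 1 or 3 or any WT library (up to 0.112).

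The 3 pairs with both genes lower were SAP30L-AS1, PSMG3-AS1 and NNT-AS1 with their partners. SAP30L-AS1 had 0.259, 0.220 and 0.298 FPKM in LenR, against 0.843, 0.909 and 0.575 FPKM in WT (log2 fold change -1.27, limma adjusted p = 0.00282). SAP30L, which belongs to the Sin3A histone deacetylase complex, had 3.87, 3.90 and 3.79 FPKM in LenR, against 6.34, 6.32 and 6.21 FPKM in WT (log2 fold change -0.69). LenR was below WT in every library for both, and the 2 genes share no exon bases. NNT-AS1 had 4.32, 4.16 and 4.67 FPKM in LenR, against 6.31, 6.35 and 5.26 FPKM in WT (log2 fold change -0.43). NNT, the mitochondrial transhydrogenase, had 35.6, 39.0 and 39.5 FPKM in LenR, against 59.9, 59.98 and 59.5 FPKM in WT (log2 fold change -0.65). PSMG3-AS1 had a log2 fold change of -0.59 and PSMG3, a proteasome assembly chaperone, one of -0.68. NNT-AS1 lost its call without LenR replicate 1 or 2 or WT replicate 1 or 2 (limma adjusted p up to 0.0978), and PSMG3-AS1 without LenR replicate 1 or WT replicate 1 or 2 (up to 0.0718).

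The log2 ratio of antisense to sense FPKM within a library did not overlap between groups in 47 of 221 pairs (21.3%), with LenR above in 34 and below in 13. For each placed gene and its nearest gene the share was 35.2%. With 3 libraries against 3, the smallest two-sided p an exact permutation test allows is 0.1, so no single ratio could pass 0.05. Without WT replicate 3 and LenR replicate 2, 105 pairs did not overlap, which a comparison of 2 libraries with 2 makes easier. The share for nearest genes was not worked out in that setting, so the 105 has no background beside it.

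Among the 221 pairs, TP73-AS1 had the log2 fold change farthest below that of its partner. It had 0.755, 0.665 and 0.647 FPKM in LenR, against 1.91, 2.06 and 2.08 FPKM in WT (log2 fold change -1.42, SE 0.108, limma adjusted p = 0.000178). TP73, a transcription factor of the p53 family, had 4.19, 4.63 and 3.30 FPKM in LenR, against 4.54, 3.93 and 5.07 FPKM in WT (log2 fold change -0.16, limma adjusted p = 0.518). The antisense gene separated the groups and its partner did not, and the 2 genes share 633 exon bases. The log2 ratio was -2.38 ± 0.22 in LenR and -1.12 ± 0.19 in WT (SD, n = 3 each, exact permutation p = 0.1). The difference between these means is the difference between the 2 log2 fold changes. The pair was chosen for its size, so the ratio describes the pair and is no separate test. RefSeq now records TP73-AS1 as a transcribed pseudogene named GFOD3P.

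BZRAP1-AS1 and BZRAP1 (now TSPOAP1, a RIM binding protein gene) differed the other way, with the larger log2 fold change in the partner. BZRAP1 had 9.91, 9.55 and 7.66 FPKM in LenR, against 26.1, 26.1 and 29.1 FPKM in WT (log2 fold change -1.58, limma adjusted p = 0.000131). BZRAP1-AS1 had 2.27, 2.65 and 1.98 FPKM in LenR, against 2.87, 3.24 and 4.04 FPKM in WT, with a log2 fold change of -0.53 (limma adjusted p = 0.0515). It shares 2207 of its 3601 exon bases with BZRAP1, RNF43 and SUPT4H1, whose reads may be counted in it. Their log2 ratio was -1.93 ± 0.14 in LenR and -2.98 ± 0.16 in WT (SD, n = 3 each, exact permutation p = 0.1). This pair too was chosen for the size of that difference, so its ratio is no separate test.

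In 4 further pairs among the 12 with the largest difference between the 2 log2 fold changes, the partner was called and the antisense gene was not. CEBPB, a leucine zipper transcription factor, had 6.25, 4.28 and 2.28 FPKM in LenR, against 1.51, 1.63 and 2.01 FPKM in WT (log2 fold change 1.16, limma adjusted p = 0.0429), while CEBPB-AS1 had a log2 fold change of 0.22. FAM13A had a log2 fold change of 0.69 and FAM13A-AS1 one of -0.15. SBF2, a myotubularin-related gene, had -0.56 and SBF2-AS1 0.16. TRAM2, the gene of a protein associated with the translocon, had a log2 fold change of -0.44 (limma adjusted p = 0.00745) and TRAM2-AS1 one of 0.23. Exon bases shared with the partner numbered 231 for CEBPB-AS1, 825 for FAM13A-AS1, 1495 for SBF2-AS1 and 0 for TRAM2-AS1. The LenR values of CEBPB spread widely, and its ratio to CEBPB-AS1 overlapped between groups, whereas the ratios of the other 3 pairs did not. All 4 pairs were chosen for the size of their difference, so the ratios are no separate test.

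**Figure D4:**
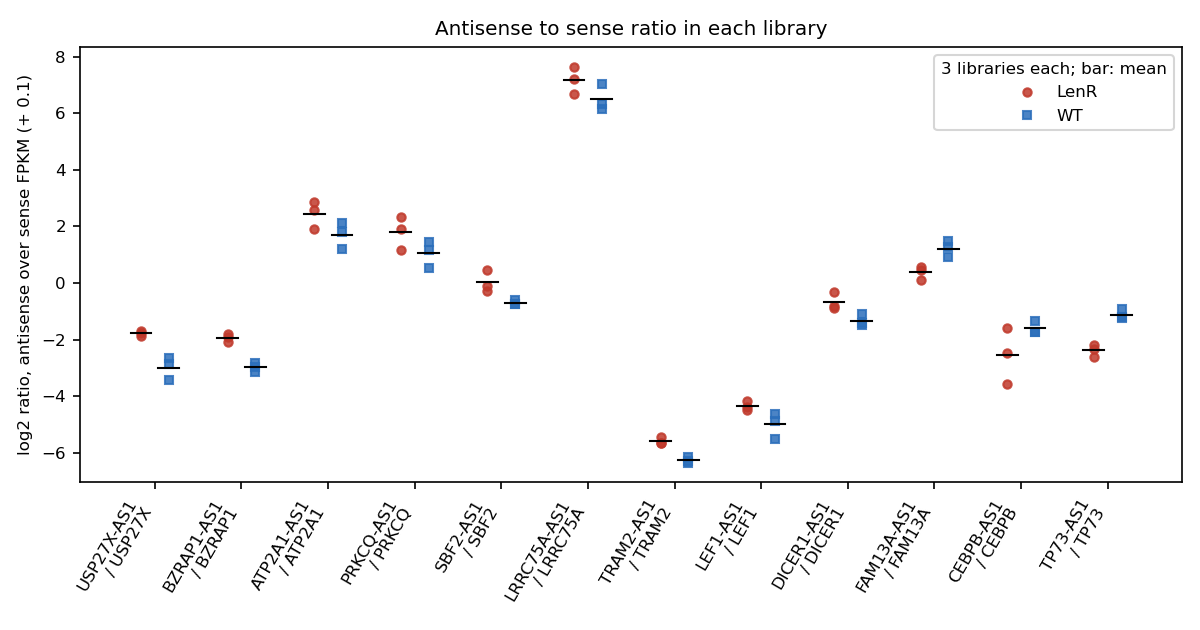
Log2 ratio of antisense to sense FPKM (0.1 added to each) in every library for the 12 pairs with the largest difference between the 2 log2 fold changes, with LenR (red circles) left of WT (blue squares); bars are means of 3 libraries. The ratio of TP73-AS1 to TP73 is lower in all LenR libraries, and that of USP27X-AS1 to USP27X is higher.

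Members with the same partner could differ in their values. GAS6 encodes a ligand of the TAM receptor kinases and had 435, 440 and 373 FPKM in LenR, against 362, 364 and 404 FPKM in WT (limma adjusted p = 0.420). GAS6-AS2, head to head with it, had 2.90, 2.53 and 2.62 FPKM in LenR, against 1.70, 1.58 and 1.87 FPKM in WT (log2 fold change 0.62, limma adjusted p = 0.00556). GAS6-AS1, which overlaps the body of GAS6, had 23.2, 29.3 and 24.3 FPKM in LenR, against 20.3, 19.0 and 26.0 FPKM in WT (log2 fold change 0.24, limma adjusted p = 0.291). Of these 3 genes, LenR and WT values were apart for GAS6-AS2 and overlapped for the other two, and the difference between GAS6-AS2 and GAS6-AS1 was not tested. PAXIP1-AS1, head to head with PAXIP1, had 14.8, 12.5 and 11.3 FPKM in LenR, against 10.1, 9.80 and 9.28 FPKM in WT (log2 fold change 0.39). Its limma adjusted p was 0.0422, and up to 0.115 with any 1 library other than LenR replicate 3 left out. PAXIP1-AS2 had a log2 fold change of -0.10 and PAXIP1 one of -0.03.

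Some called members lay among genes that moved the same way. Of 312 members with at least 5 other table genes within 1 Mb, 18 had neighbours whose median log2 fold change was at least 0.3 in size, a limit chosen after the values were seen. Of those 18 members 9 were called, all in the direction of their neighbours, with 7 higher and 2 lower. Of the other 294 members 39 were called (13.3%), with 29 higher and 10 lower. Among genes outside the rule, 404 of 578 with such neighbours were called (69.9%), 391 of them in the direction of their neighbours, and elsewhere 1350 of 10246 (13.2%). The share of members called among such neighbours, 50%, was not above that of the other genes. FAM222A-AS1 lies on chromosome 12 at 109734209 to 109773487, where 25 of 26 neighbours were called higher (median 0.61). MAPKAPK5-AS1 lies on the same chromosome, with 13 of 14 neighbours higher (median 0.63), and LINC01234 has 9 of 11 higher (median 0.69). MAPKAPK5-AS1 had 7.39, 6.10 and 7.88 FPKM in LenR, against 3.67, 3.54 and 3.29 FPKM in WT (log2 fold change 1.00, limma adjusted p = 0.000784). SAP30L-AS1 lies on chromosome 5, where 8 of 9 neighbours were lower (median -0.87), and PSMG3-AS1 on chromosome 7, where 17 of 20 were lower (median -0.77). TONSL-AS1 lies on chromosome 8, where 30 of 54 neighbours were higher (median 0.49). USP30-AS1, LINC00173 and LINC01089, also on chromosome 12, are the other members of the 9. DNA copy number was not measured, and the part of these regions in the members' changes was not tested. AFAP1-AS1, LINC01480, USP27X-AS1 and TP73-AS1 lay among neighbours with medians of -0.03, 0.02, 0.10 and -0.06.

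**Figure D5:**
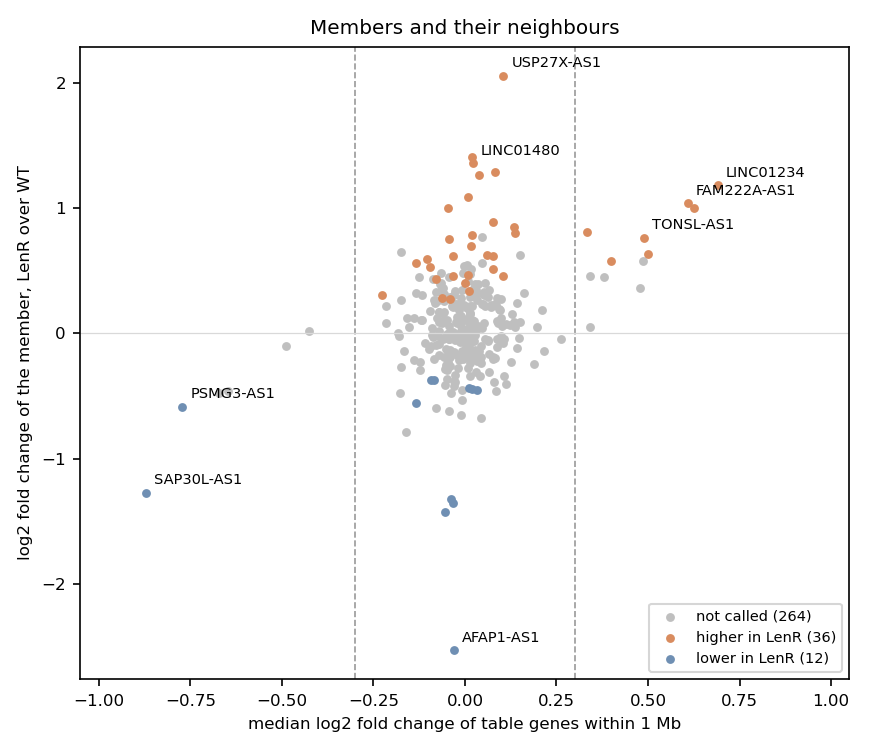
Log2 fold change of each member (y axis, LenR over WT) against the median log2 fold change of the other table genes within 1 Mb (x axis) for 312 members with at least 5 such genes, coloured by call; dashed lines mark medians of 0.3 in size. A group of called members at the right and SAP30L-AS1 and PSMG3-AS1 at the left lie among genes that moved with them, while AFAP1-AS1, USP27X-AS1 and LINC01480 lie near 0 on the x axis.

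Sharing of exon bases with another gene, which can bring in that gene's reads when strand is not used, was found for 175 of 336 members (52.1%). It was found for 21 of 57 called members (36.8%) and 154 of 279 members not called. Its part in the calls was not tested.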

How the data were processed

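RNA-seq was done on 3 LenR and 3 WT libraries of MM.1S cells. The authors deposited FPKM values per gene; per the submitters' processing notes, FastQC 0.11.9, HISAT2 2.2.1, edgeR 3.40.2 and featureCounts 2.0.3 are named with build hg38. For the annotation, the strand setting and any filter on low counts, no statement was given in the sources used here. The tests used limma 3.58.1 in R 4.3.3 on log2(FPKM + 0.1), with empirical Bayes shrinkage with a trend, two-sided, Benjamini-Hochberg adjusted over all 12760 genes, threshold 0.05. Other work was done in Python 3.11.15. Reads were worked out as the smallest whole numbers that the FPKM steps allow, raised by a common factor for 8 genes where these were very few. All 12760 genes came out whole within 0.03 read, and voom on these reads was an alternative that called 52 members. These reads could be whole multiples short of the true reads. The limma fit on log2(FPKM + 0.1) was run on simulated data, and voom was not. The simulated counts had the same spread setting for every gene and no effect shared between libraries. That run therefore cannot show how the fit behaves with libraries that stand apart, as LenR replicate 2 and WT replicate 3 did. Symbols were matched to RefSeq (GRCh38.p14): 271 members by symbol and 81 by synonym, of which 4 are merged with another table gene. Sense partners were found by symbol for 219 of 221 pairs. Named were the 12 called members with the highest and 12 with the lowest log2 fold change, the 10 most abundant, 22 chosen names, the 12 pairs with the largest difference, pairs with both genes called, and partners. Members and lists were chosen with earlier results of these data known. Alternatives covered the pseudocount, filter, scaling, shrinkage, voom, the replicate block and left-out libraries.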

Additional observations from a re-analysis of the deposited data

How the results depend on the processing

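Main counts were 46 members higher, 13 lower, 2108 genes called and 14 pairs with both genes called. Leaving out 1 library gave 28 to 45 members higher, 7 to 12 lower, 1311 to 1900 genes and 6 to 12 such pairs. The counts moved by over 1.5 times without LenR replicate 1 (29 higher, 7 lower, 1343 genes, 6 pairs), WT replicate 1 (28 higher, 1311 genes, 8 pairs) and WT replicate 2 (1376 genes, 7 pairs). With the replicate number as a block there were 28 higher, 8 lower, 1225 genes and 7 pairs. After each gene's group mean was subtracted, same-numbered libraries had correlations of 0.02, -0.35 and -0.49. The highest, 0.499, was between LenR replicate 2 and WT replicate 3. Subtracting the means of so few libraries makes these values balance around 0, so they cannot decide whether the numbers pair the samples. Adding a term shared by WT replicate 3 and LenR replicate 2 gave 25 lower and 3562 genes, and 2097 genes were called without both. Averaging WT replicates 1 and 2 gave 1383 genes and 7 pairs. A mean of at least 1 FPKM gave 9 pairs with either pseudocount, and quantile normalization gave 20 lower. Leaving out WT replicate 3 and LenR replicate 2 gave 105 pairs with ratios that did not overlap, against 47 with all libraries. With fewer libraries non-overlap is easier, and no background share was worked out there. Of the 59 called members, 33 kept their call in all 6 fits without 1 library, and all 59 kept their sign by voom, which called 50 of them. The causes were not tested.

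Signs that turned belonged to members not called. Log2 fold changes turned for IFNG-AS1 (0.029 with WT replicates 1 and 2 averaged), LINC00493 (0.0745 likewise, and 0.109 without WT replicate 3 and LenR replicate 2), LINC01578 and PTOV1-AS2 (0.0502 and 0.0238 without those 2 libraries) and LINC00511 (-0.0065, quantile normalised). Without 1 library the log2 fold change ran from -0.0045 to 0.425 for EPB41L4A-AS1, -0.0636 to 0.0416 for IFNG-AS1, -0.263 to 0.103 for LINC00152, -0.178 to 0.273 for LINC00493, -0.0402 to 0.14 for LINC00511, -0.184 to 0.0614 for LINC00657, -0.124 to 0.0747 for LINC01578, -0.0343 to 0.298 for LRRC75A-AS1, -0.0885 to 0.0745 for PTOV1-AS2 and -0.0095 to 0.053 for TMPO-AS1. Members below 1 FPKM had a median of 159 reads over 6 libraries and a median SE of 0.178, against 181.5 reads and 0.174 for all genes below 1 FPKM.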
